A study of Mus musculus with 12 samples.

Results

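The integrated stress response was followed through 38 genes that have been described as targets of the transcription factor ATF4, measured by RNA sequencing of mouse pancreatic islets after beta cells were ablated with diphtheria toxin. The genes were taken by name as a module, and a gene counted as a member when it had 10 or more counts in at least 3 libraries. All 38 named genes met that rule, out of 48709 genes in the table, and all 38 were also among the 17294 genes with enough counts to be tested. The libraries fall into 4 groups of 3, all from female mice of genotype NSG RIP-DTR Htz. All groups thus carry 1 copy of a transgene, on the immunodeficient NSG background. In it the rat insulin promoter drives the receptor for diphtheria toxin, so that beta cells making the receptor become sensitive to the toxin. Whether all beta cells make the receptor is not given in the sources used here. The untreated group (CTRL) received no treatment and carries the same transgene, and the 3 DT groups received diphtheria toxin and are labelled 1, 3 and 5 DPA, read here as days post-ablation. The age of the mice is not given in the sources used here. No label states that each library is a different animal, and the p-values therefore reflect the variation between these libraries alone, which may be technical.

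The integrated stress response begins when a kinase (PERK, GCN2, PKR or HRI) phosphorylates the alpha subunit of the initiation factor eIF2. This slows translation in general while the Atf4 mRNA is translated more, so much of ATF4 control lies beyond what mRNA levels show. ATF4 pairs with C/EBP proteins on a composite DNA element and raises genes for amino acid uptake, amino acid synthesis and tRNA charging. It also raises genes that end the response or lead to cell death. In beta cells, which make large amounts of insulin in the endoplasmic reticulum, PERK and this response are known to be needed for normal function.

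The composite element was searched as TGATGNAA, on both strands, in the RefSeq promoter windows of mouse build GRCm38.p6, which run from 250 bases before to 50 bases after each gene's start. Windows were matched for 31 of the 38 members. Those not matched were Slc7a5, Slc7a3, Aldh1l2, Nars, Wars, Cars and Lars. The element was present for 12 of the 31 members (38.7%), against 1219 of 27025 genes in the promoter set (4.51%). Its form TGATGCAA, which the first motif includes, was present for 9 of the 31 (29.0%) and for 279 of the 27025 genes (1.03%). Because the members were named as ATF4 targets, these shares are not independent of how the genes were chosen. The stretches around the element are shown for the members that hold it upstream of the start, because the measured mRNA changes of these same genes are set beside them below. Each runs 5′ to 3′ on the strand of the gene, and the capitals mark the element, which reads as its reverse complement where it lies on the opposite strand.
Chac1, chr2:119351019-119351086, plus strand: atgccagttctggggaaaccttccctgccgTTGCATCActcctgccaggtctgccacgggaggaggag
Nupr1, chr7:126625543-126625610, minus strand: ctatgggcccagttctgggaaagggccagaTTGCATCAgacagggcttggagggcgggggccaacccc
Fgf21, chr7:45615592-45615659, minus strand: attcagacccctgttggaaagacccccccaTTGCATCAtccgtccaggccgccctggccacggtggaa
Vldlr, chr19:27216790-27216857, plus strand: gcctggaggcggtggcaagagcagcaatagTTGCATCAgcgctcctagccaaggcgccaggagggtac
Slc7a11, chr3:50443642-50443709, minus strand: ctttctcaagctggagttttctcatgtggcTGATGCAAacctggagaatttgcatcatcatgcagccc
Asns, chr6:7693210-7693262, minus strand: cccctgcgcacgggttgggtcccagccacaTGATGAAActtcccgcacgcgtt
Aars, chr8:111033700-111033767, plus strand: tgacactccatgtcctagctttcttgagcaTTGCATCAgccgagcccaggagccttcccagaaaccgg
Gars, chr6:55037941-55038000, plus strand: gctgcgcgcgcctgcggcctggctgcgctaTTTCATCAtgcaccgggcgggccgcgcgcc
Tars, chr15:11399659-11399703, minus strand: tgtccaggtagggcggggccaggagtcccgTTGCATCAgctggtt
Slc7a11 held a second copy further on in the stretch shown, on the opposite strand and left in lower case. Aars held a second copy after its start, and the copies of Trib3, Yars and Iars also lay after the start. A match is a description of these letters and not a measured binding site.

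Total counts ran from 29867083 to 50012558 per library, and the 38 members took 0.237% to 0.284% of them. The 10 beta cell markers took 11.3% to 15.3% of counts at 1 DPA, and 15.5% to 21.0% over the libraries of 3 and 5 DPA, against 17.3% to 20.2% in CTRL, and none of them was at 0 in any group. The acinar cell markers took 0.529% to 4.59% at 1 DPA, 0.423% to 1.21% at 3 DPA and 0.814% to 3.04% at 5 DPA, against 0.999% to 6.27% in CTRL. The mean log2 CPM of the macrophage markers was 2.93 to 3.27 at 1 DPA, 4.18 to 4.85 at 3 DPA and 5.50 to 6.01 at 5 DPA, against 3.27 to 5.26 in CTRL. CTRL replicate 3, the lowest CTRL library in both marker sets, stood apart from the other CTRL libraries on the first principal component (-7.03, against -72.1 and -55.3). In bulk islets, fewer cells of a type and less RNA per cell cannot be told apart.

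At 1 DPA 4 of the 5 transcription factors in the module (Atf4, Ddit3, Cebpb and Cebpg, but not Atf5) rose, as did the eIF2 phosphatase subunit gene Ppp1r15a, while most of the metabolic and effector targets did not pass the test. Of the 38 members, 15 were called (39.5%), 9 higher (23.7%) and 6 lower (15.8%), in edgeR's quasi-likelihood test at a Benjamini-Hochberg adjusted p under 0.05, the call rule used throughout. Of all 17294 genes tested, 51.6% were called in the same comparison, 29.2% higher and 22.4% lower, so the share of members called was below the background. The median log2 fold change of the members was -0.05, and that of all genes tested was also -0.05. Another setting took library sizes without the 50 most abundant genes and used no TMM scaling. There the members split into 9 higher and 11 lower, and the median of all genes moved to -0.17. At 3 DPA 7 members were called (6 higher and 1 lower, 18.4%), beside 12.6% of all genes (10.2% higher and 2.37% lower), with a median of -0.03 for the members and -0.01 for all genes. At 5 DPA 5 members were called, all higher (13.2%), beside 8.54% of all genes (5.87% higher and 2.67% lower), with medians of -0.07 and 0.01. The number called at 3 DPA was 11 without 1 DPA replicate 3 and 4 without 3 DPA replicate 1. At 5 DPA it dropped to 3 when CTRL replicate 2 was left out, or likewise 1 DPA replicate 2. It dropped to 2 when 3 DPA replicate 3, 5 DPA replicate 1 or 5 DPA replicate 2 was left out, and to 1 when CTRL replicate 3 or 5 DPA replicate 3 was. All 3 comparisons share the CTRL libraries.

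Separation of the libraries was also counted without a test. At 1 DPA all 3 libraries lay above every CTRL library for 9 members and below for 5, beside 31.1% and 23.5% of all genes. At 3 DPA this was so for 7 members above and 7 below, beside 17.9% and 11.1% of all genes. At 5 DPA it was 5 above and 8 below, beside 16.5% and 12.2%.

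**Figure D1:**
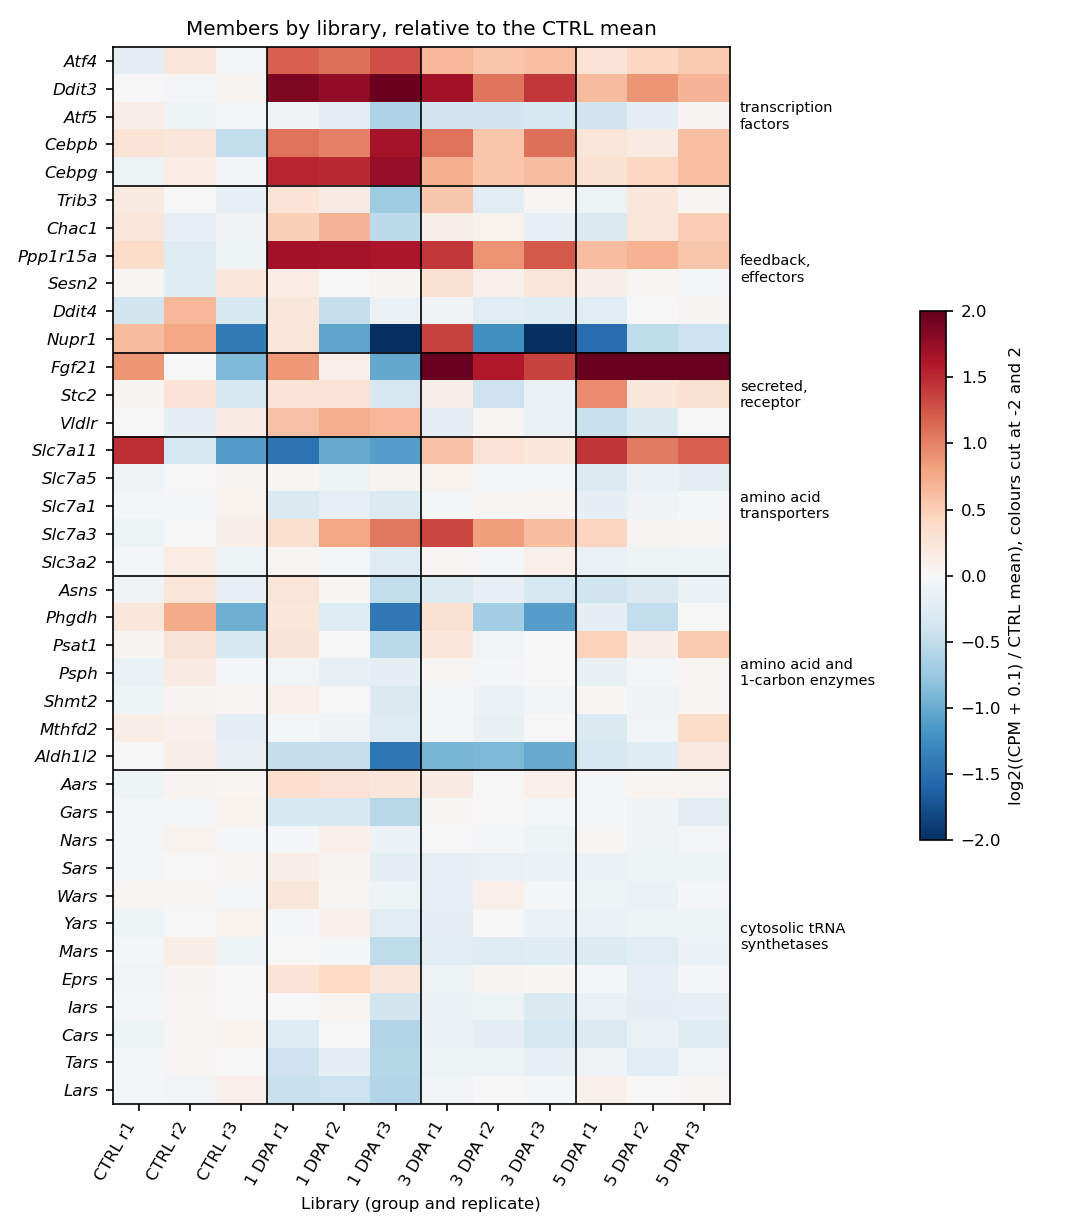
Level of each of the 38 members (rows, grouped by role) in each of the 12 libraries (columns), as log2 of CPM plus 0.1 relative to the mean of the 3 CTRL libraries, with colours limited at -2 and 2. Red fills the rows of Atf4, Ddit3, Cebpg and Ppp1r15a in the DT libraries, most strongly at 1 DPA, while Asns and most tRNA synthetase rows stay near white and Nupr1 and Slc7a11 vary within groups.

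Among the 5 transcription factors, 4 rose at 1 DPA (Atf4, Ddit3, Cebpb and Cebpg), the same 4 rose at 3 DPA, and all of these except Cebpb rose at 5 DPA. Of all genes tested, 29.2%, 10.2% and 5.87% were called higher at 1, 3 and 5 DPA. Atf4 had CPM (read counts scaled by TMM library size) of 142, 189 and 157 in CTRL, 371, 344 and 396 at 1 DPA, 256, 236 and 243 at 3 DPA and 196, 215 and 233 at 5 DPA. The lowest DT library lay above the highest CTRL library at each time, and the levels were highest at 1 DPA. The log2 fold changes over CTRL were 1.19 ± 0.10 (SE, edgeR adjusted p = 2.41e-06) at 1 DPA, 0.59 ± 0.10 (adjusted p = 0.00194) at 3 DPA and 0.40 ± 0.10 (adjusted p = 0.0326) at 5 DPA.

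Ddit3 encodes CHOP, the factor that links prolonged stress to apoptosis. Its CPM were 13.6, 13.3 and 14.3 in CTRL, 50.3, 47.2 and 53.3 at 1 DPA, 43.95, 28.7 and 36.5 at 3 DPA and 21.4, 25.2 and 22.04 at 5 DPA. No DT library overlapped CTRL, and Ddit3 had the largest rise of any member at 1 DPA, 3.67-fold. Its log2 fold changes were 1.88 ± 0.13 (edgeR adjusted p = 5.97e-07) at 1 DPA, 1.41 ± 0.13 (adjusted p = 3.51e-05) at 3 DPA and 0.74 ± 0.13 (adjusted p = 0.00707) at 5 DPA. Ddit3 (chr10:127290774-127296288, plus strand) and the methionyl-tRNA synthetase gene Mars (chr10:127296221-127311786, minus strand, both mm10) overlap by 68 bases. Whether the authors counted by strand is not given in the sources used here, so reads of that stretch cannot be assigned to either gene.

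Cebpg encodes a C/EBP partner of ATF4 that lacks an activation domain of its own. Its CPM were 46.4, 54.9 and 47.9 in CTRL, 142, 139 and 166 at 1 DPA, 82.2, 72.7 and 76.5 at 3 DPA and 61.2, 66.3 and 75.1 at 5 DPA. Every DT library lay above every CTRL library. Over CTRL, its log2 fold changes were 1.58 ± 0.10 (edgeR adjusted p = 2.84e-07), 0.63 ± 0.10 (adjusted p = 0.000936) and 0.44 ± 0.10 (adjusted p = 0.0187) at 1, 3 and 5 DPA.

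Cebpb encodes C/EBP beta, another partner of ATF4. It had CPM of 43.8, 42.5 and 25.7 in CTRL, 77.3, 73.4 and 115 at 1 DPA, 76.9, 53.4 and 77.7 at 3 DPA and 42.8, 40.8 and 55.3 at 5 DPA. The libraries of 1 and 3 DPA lay above all CTRL libraries, and those of 5 DPA overlapped them. These gave log2 fold changes of 1.25 ± 0.25 (edgeR adjusted p = 0.00220) at 1 DPA and 0.89 ± 0.25 (adjusted p = 0.0430) at 3 DPA, and 0.31 ± 0.25 at 5 DPA did not pass the test (adjusted p = 0.496). The gene of Tmem189 overlaps Cebpb by 908 bases on the opposite strand, and counted genes likewise overlap Atf5 (Nup62 and Il4i1), Aldh1l2 (D10Wsu102e), Shmt2 (Ndufa4l2), Wars (Wdr25) and Yars (C77080).

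Atf5, the remaining factor, is translated under stress by the same upstream-frame mechanism as ATF4. Its CPM were 202, 172 and 178 in CTRL, 174, 161 and 119.6 at 1 DPA, 141, 140.5 and 149 at 3 DPA and 140.4, 162 and 190.2 at 5 DPA. Its log2 fold changes were -0.28 ± 0.14, -0.36 ± 0.14 and -0.16 ± 0.14, none past the test (edgeR adjusted p = 0.112, 0.125 and 0.514). All 3 libraries of 3 DPA lay below every CTRL library, and those of 1 and 5 DPA overlapped CTRL. The 95% interval at 1 DPA ran from -0.58 to 0.02 in log2 units, before any adjustment.

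The 1 DPA calls of these 4 factors held when any 1 library was left out, but some later calls did not. Leaving out any CTRL library, 1 DPA replicate 1, 3 DPA replicate 1 or 3, or 5 DPA replicate 1 or 2 ended the Cebpb call at 3 DPA (edgeR adjusted p from 0.0559 to 0.176). So did the acinar score as a covariate (0.180), a fit of only the 2 groups (0.0959), the replicate block (0.0763), no filter (0.0713) and the stricter CPM filter (0.0523). At 5 DPA the Atf4 call was lost on leaving out CTRL replicate 1 or 3, 3 DPA replicate 3 or any 5 DPA library (0.0502 to 0.111). The Cebpg call there was lost on leaving out CTRL replicate 3 (0.0575) or 5 DPA replicate 3 (0.064), and that of Ddit3 held for each library. With the macrophage score as a covariate none of the 5 DPA calls against CTRL passed, and the nearest was Ddit3 (adjusted p = 0.0989). That score did not overlap between 1, 3 and 5 DPA, and at 5 DPA it lay above CTRL (5.50 to 6.01, against 3.27 to 5.26). Fits with this score, here and below, therefore cannot cleanly separate it from the group. With only the 2 groups compared, Ddit3 was the 1 member called at 5 DPA.

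**Figure D2:**
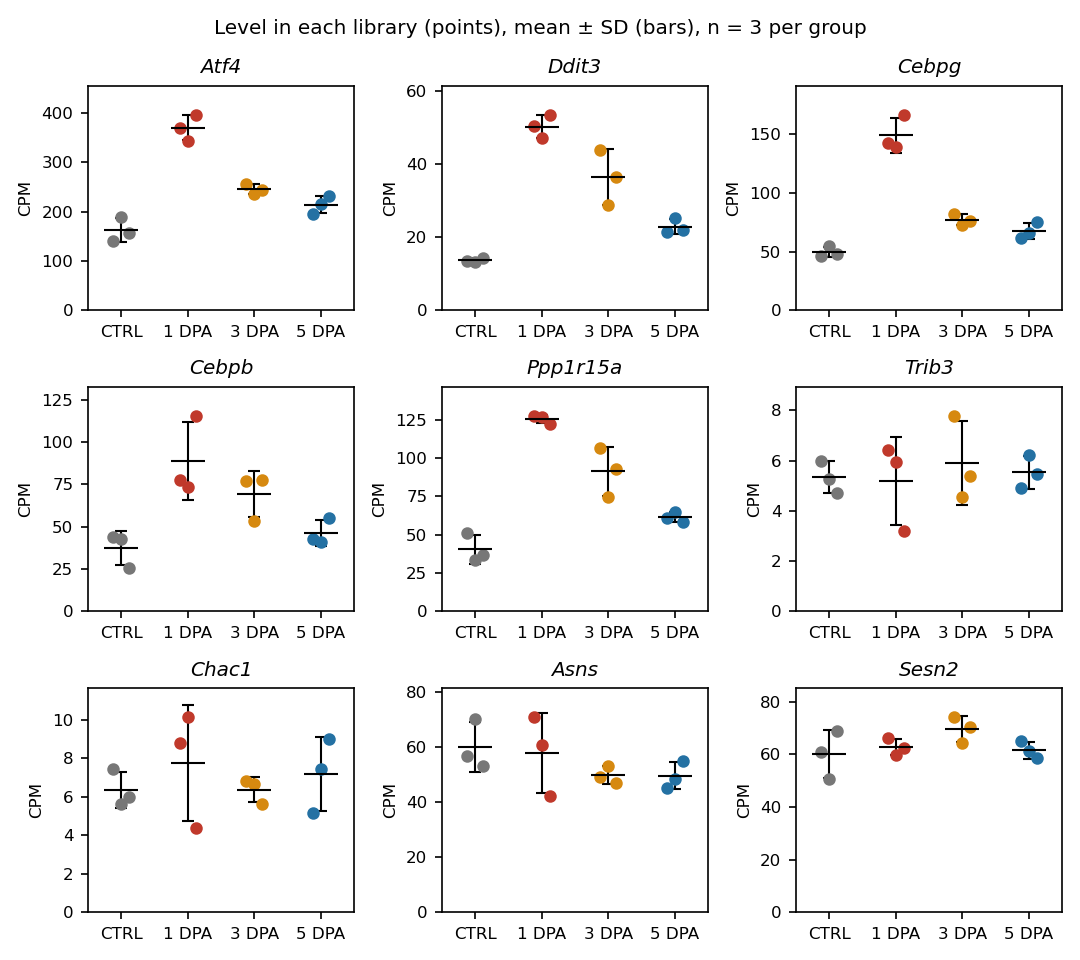
CPM (vertical axes, each from 0) of 9 members in CTRL and at 1, 3 and 5 DPA, with 1 point per library and bars for the mean ± SD (n = 3). Atf4, Ddit3, Cebpg, Cebpb and Ppp1r15a peak at 1 DPA, whereas the points of Trib3, Chac1, Asns and Sesn2 overlap between 1 DPA and CTRL.

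Among the 6 feedback and stress effectors, Ppp1r15a rose at all 3 times and Trib3, Chac1, Sesn2, Ddit4 and Nupr1 were called at none. Beside this, 51.6%, 12.6% and 8.54% of all genes were called at 1, 3 and 5 DPA. Ppp1r15a encodes GADD34, the phosphatase subunit that removes the phosphate from eIF2 and so ends the response. Its CPM were 51.2, 33.4 and 36.9 in CTRL, 127, 127 and 123 at 1 DPA, 106, 74.6 and 93.1 at 3 DPA and 61.1, 64.7 and 58.4 at 5 DPA, with no overlap between any DT group and CTRL. Its rises on the log2 scale were 1.63 ± 0.16 (edgeR adjusted p = 8.24e-06), 1.17 ± 0.15 (adjusted p = 0.000445) and 0.60 ± 0.15 (adjusted p = 0.0367). The 5 DPA call was lost without CTRL replicate 2 or 3, any 1 DPA library, 3 DPA replicate 3 or any 5 DPA library (adjusted p 0.0531 to 0.135), and for Ppp1r15a also with the acinar score as a covariate (0.0705).

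Trib3 encodes a pseudokinase that restrains ATF4 and CHOP and is among the best known markers of the response. Its CPM were 6.004, 5.28 and 4.72 in CTRL, 6.44, 5.96 and 3.20 at 1 DPA, 7.77, 4.55 and 5.39 at 3 DPA and 4.92, 6.23 and 5.46 at 5 DPA. The groups overlapped at each time, and 1 DPA replicate 3 was the lowest of all 12 libraries. The log2 fold change at 1 DPA was -0.03 ± 0.26 (edgeR adjusted p = 0.923), with a 95% interval of -0.60 to 0.53.

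Chac1 encodes a glutathione-degrading enzyme downstream of ATF4 and CHOP. Its CPM were 7.43, 5.64 and 6.01 in CTRL, 8.81, 10.1 and 4.38 at 1 DPA, 6.84, 6.65 and 5.64 at 3 DPA and 5.17, 7.46 and 8.99 at 5 DPA. The 1 DPA libraries spread widely, from below to above all CTRL libraries. The log2 fold change there was 0.29 ± 0.28 (edgeR adjusted p = 0.399), with a 95% interval of -0.32 to 0.91. Within 1 DPA, replicate 3 was lowest in Trib3, in Chac1 and in its acinar marker share (0.529%, against 4.59% and 2.35% in replicates 1 and 2). The library lowest in acinar share was also lowest in Trib3 in CTRL and at 5 DPA, and lowest in Chac1 at 3 and 5 DPA. In contrast, 3 DPA replicate 2 had the highest acinar share of its group (1.21%) and the lowest Trib3. Likewise CTRL replicate 2 had the highest share of its group and the lowest Chac1. The part of acinar cells in these levels was not tested. With the acinar score as a covariate, the 1 DPA values were 0.04 for Trib3 (adjusted p = 0.884) and 0.37 for Chac1 (adjusted p = 0.187), and neither was called.

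Sesn2 encodes sestrin 2, which restrains mTORC1 when amino acids are scarce. Its CPM were 60.9, 50.7 and 68.98 in CTRL, 66.05, 59.7 and 62.3 at 1 DPA, 74.04, 64.2 and 70.3 at 3 DPA and 64.9, 61.2 and 58.6 at 5 DPA, overlapping CTRL at every time. Its log2 fold change at 1 DPA was 0.06 ± 0.10 (edgeR adjusted p = 0.632), with a 95% interval of -0.16 to 0.28. Ddit4, another mTORC1 inhibitor gene, differed from CTRL by -0.17 ± 0.26 at 1 DPA (adjusted p = 0.600). Nupr1, a chromatin-associated stress gene also abundant in stressed acinar cells, ranged from 4.69 to 47.7 CPM at 1 DPA and from 8.78 to 103 CPM at 3 DPA, against 15.1 to 69.5 CPM in CTRL. Within CTRL, 1 DPA and 5 DPA the libraries ranked by Nupr1 in the same order as by acinar marker share. At 3 DPA the library lowest in Nupr1 was also lowest in that share (0.423%), but the order of the others differed. There replicate 1, the highest library of all in Nupr1, had a share of 0.885%. Replicate 2 had a larger share (1.21%), with Nupr1 at 17.3 CPM. With the acinar score as a covariate Nupr1 was again not called (-0.64 at 1 DPA, adjusted p = 0.475).

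Of the secreted factors and the lipoprotein receptor, Vldlr rose at 1 DPA and Fgf21 at 5 DPA, while Stc2 was called at no time. Among all genes, 29.2% were called higher at 1 DPA and 5.87% at 5 DPA. Vldlr encodes the very low density lipoprotein receptor. Its CPM were 54.5, 47.97 and 60.99 in CTRL, 81.2, 89.9 and 85.9 at 1 DPA, 47.5, 55.4 and 49.5 at 3 DPA and 39.7, 44.2 and 54.2 at 5 DPA. All 1 DPA libraries lay above CTRL, while the later groups overlapped it. Vldlr differed from CTRL by 0.65 ± 0.12 (edgeR adjusted p = 0.000571) at 1 DPA, -0.10 ± 0.12 at 3 DPA (adjusted p = 0.657) and -0.24 ± 0.12 at 5 DPA (adjusted p = 0.217).

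Fgf21 encodes a hormone of the fasting and stress responses and was rare in these islets. Its raw counts were 15, 7 and 2 in CTRL, 14, 7 and 1 at 1 DPA, 50, 25 and 28 at 3 DPA, and 76, 54 and 42 at 5 DPA. The 3 and 5 DPA libraries were above all CTRL libraries, and those of 1 DPA overlapped CTRL. The log2 fold change at 5 DPA was 2.62 ± 0.68 (edgeR adjusted p = 0.0366), while 1.97 ± 0.68 at 3 DPA did not pass (adjusted p = 0.0854). The call at 5 DPA was lost without CTRL replicate 2 or 3, 1 DPA replicate 2, any 3 DPA library or any 5 DPA library (adjusted p 0.0505 to 0.117). The 5 DPA libraries also had the highest macrophage scores (5.50 to 6.01), and with that score as a covariate the Fgf21 value at 5 DPA was 1.84 (adjusted p = 0.268).

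Stc2, the gene of the secreted glycoprotein stanniocalcin 2, had CPM of 3.59, 4.20 and 2.71 in CTRL, 4.18, 4.17 and 2.73 at 1 DPA, 3.72, 2.55 and 3.14 at 3 DPA and 6.69, 4.01 and 4.28 at 5 DPA. The groups overlapped. Its log2 fold change at 5 DPA was 0.51 ± 0.26 (edgeR adjusted p = 0.250).

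The amino acid transporters moved in both directions at 1 DPA: Slc7a3 rose, Slc7a1 and Slc7a11 fell, and neither subunit of the large neutral amino acid exchanger, Slc7a5 and Slc3a2, was called. The shares of all genes called higher and lower there were 29.2% and 22.4%. Slc7a1, which imports arginine and lysine, had CPM of 59.7, 59.7 and 64.7 in CTRL, 50.4, 54.8 and 50.5 at 1 DPA, 59.6, 62.3 and 63.1 at 3 DPA and 54.1, 58.3 and 59.7 at 5 DPA. All 1 DPA libraries lay below CTRL and the difference was small, -0.24 ± 0.06 in log2 units (edgeR adjusted p = 0.00593). Slc7a5 and Slc3a2 differed from CTRL by 0.00 ± 0.06 and -0.09 ± 0.08 at 1 DPA (adjusted p = 0.993 and 0.354).

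Slc7a3, another cationic amino acid transporter, had CPM of 1.82, 1.94 and 2.13 in CTRL, 2.48, 3.43 and 4.19 at 1 DPA, 5.08, 3.56 and 3.06 at 3 DPA and 2.68, 2.04 and 1.99 at 5 DPA. Its 1 and 3 DPA libraries lay above all CTRL libraries. The rises were 0.77 ± 0.25 log2 units (edgeR adjusted p = 0.0213) and 0.99 ± 0.25 (adjusted p = 0.0199). Leaving out CTRL replicate 1, CTRL replicate 2, 1 DPA replicate 2 or 1 DPA replicate 3 ended the call at 1 DPA (adjusted p 0.0521 to 0.116). The 3 DPA call was lost on leaving out CTRL replicate 1, CTRL replicate 2 or 3 DPA replicate 1 (0.0648 to 0.121). For Slc7a3 the macrophage score as a covariate also ended the call at 1 DPA (0.128), as did the acinar score at 3 DPA (0.135) and a fit of only the 2 groups there (0.0514).

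Slc7a11 encodes the cystine transporter subunit that feeds glutathione synthesis. Its raw counts were 92, 25 and 14 in CTRL, 8, 13 and 10 at 1 DPA, 59, 35 and 46 at 3 DPA, and 122, 88 and 71 at 5 DPA. CTRL replicate 1 stood far above the other CTRL libraries, and the CPM of 1 DPA (0.220, 0.343 and 0.317) overlapped those of CTRL (2.39, 0.600 and 0.311). The log2 fold change at 1 DPA was -1.89 ± 0.62 (edgeR adjusted p = 0.0241). The call ended without CTRL replicate 1 (-0.67, adjusted p = 0.173) or any 1 DPA library (adjusted p 0.0522 to 0.0801), and limma-voom did not make it for Slc7a11 (adjusted p = 0.153), nor did a fit of only the 2 groups (0.0803) or one with the acinar score (0.0548). With the macrophage marker score as a covariate the Slc7a11 value turned to 0.02 (adjusted p = 0.986), and the macrophage scores were 2.93 to 3.27 at 1 DPA, against 5.26, 4.85 and 3.27 in CTRL replicates 1 to 3. At 5 DPA Slc7a11 was not called against CTRL in the main fit. Without CTRL replicate 1 it was called higher there (2.13, edgeR adjusted p = 0.00752).

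Of the 7 enzymes of amino acid synthesis and mitochondrial folate metabolism, Aldh1l2 fell at 1 and 3 DPA, and Asns, Phgdh, Psat1, Psph, Shmt2 and Mthfd2 were called at no time. For all genes, the shares called lower at 1 and 3 DPA were 22.4% and 2.37%. Asns encodes asparagine synthetase, whose promoter element is the classic example of amino acid control. Its CPM were 56.7, 70.2 and 53.1 in CTRL, 70.8, 60.7 and 42.2 at 1 DPA, 49.2, 53.3 and 46.8 at 3 DPA and 45.2, 48.6 and 54.95 at 5 DPA. The 1 DPA libraries spanned the whole CTRL range, with replicate 3 lowest. In every group the libraries ranked by Asns in the same order as by acinar marker share. At 1 DPA these shares were 4.59%, 2.35% and 0.529% in replicates 1 to 3. With the acinar score as a covariate Asns was again not called against CTRL. How much of the Asns level came from acinar cells was not tested. On the log2 scale Asns differed from CTRL by -0.05 ± 0.17 (95% interval -0.42 to 0.32, edgeR adjusted p = 0.815), -0.27 ± 0.17 (adjusted p = 0.369) and -0.28 ± 0.17 (adjusted p = 0.349).

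Aldh1l2 encodes the mitochondrial formyltetrahydrofolate dehydrogenase. It had CPM of 30.02, 32.7 and 26.9 in CTRL, 21.3, 21.6 and 10.8 at 1 DPA, 15.6, 15.9 and 14.8 at 3 DPA and 23.9, 25.3 and 34.2 at 5 DPA. The libraries of 1 and 3 DPA were all below CTRL, and those of 5 DPA overlapped it. Its log2 fold changes were -0.74 ± 0.23 (edgeR adjusted p = 0.0190) and -0.95 ± 0.23 (adjusted p = 0.0179), and the 3 DPA call ended without 3 DPA replicate 1 (0.0567) or 3 (0.0664), and for Aldh1l2 also with the acinar score as a covariate (-0.55, 0.0643). The 1 DPA call of Aldh1l2 ended with the macrophage score as a covariate (-0.63, 0.173) and with only the 2 groups compared (0.0539).

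The serine pathway genes Phgdh, Psat1 and Psph encode the successive enzymes from a glycolytic intermediate to serine. Psat1 had CPM of 8.01, 9.24 and 6.23 in CTRL, 9.22, 7.73 and 5.26 at 1 DPA, 8.93, 7.47 and 7.71 at 3 DPA and 10.7, 8.35 and 11.2 at 5 DPA, with overlap at each time. At 1 DPA the log2 fold changes were -0.08 ± 0.21 for Psat1, -0.50 ± 0.52 for Phgdh and -0.14 ± 0.10 for Psph (edgeR adjusted p = 0.770, 0.438 and 0.274). Shmt2 and Mthfd2, which carry folate units inside mitochondria, differed by -0.06 ± 0.09 and -0.12 ± 0.14 (adjusted p = 0.616 and 0.498). Psph overlaps Cct6a by 452 bases on the opposite strand, and Cct6a had more counts over all libraries (43672, against 5564), so without knowledge of strand use the Psph level is uncertain.

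The 12 cytosolic aminoacyl-tRNA synthetases of the module, which load amino acids onto tRNAs, differed from CTRL by less than 0.5 log2 units at 1 DPA. At 1 DPA 2 rose (Aars and Eprs), 3 fell (Gars, Tars and Lars) and 7 were not called, with all 12 log2 fold changes between -0.49 and 0.30 and a median of -0.08. These calls were 16.7% higher and 25% lower, beside 29.2% and 22.4% of all genes. Eprs, which charges glutamate and proline tRNAs, had CPM of 148, 159 and 154 in CTRL, 185, 202 and 179 at 1 DPA, 143, 159 and 156 at 3 DPA and 149, 137 and 149 at 5 DPA. All 1 DPA libraries lay above CTRL (0.30 ± 0.06 in log2 units, edgeR adjusted p = 0.00249). The alanyl synthetase gene Aars rose by 0.28 ± 0.06 (adjusted p = 0.00268).

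Lars, the leucyl synthetase gene, had CPM of 92.8, 91.7 and 103 in CTRL, 70.04, 70.9 and 63.8 at 1 DPA, 92.3, 96.2 and 92.7 at 3 DPA and 102, 95.5 and 97.7 at 5 DPA. Gars, the glycyl synthetase gene, had CPM of 163, 163 and 175 in CTRL, 135, 136 and 114 at 1 DPA, 169, 168 and 165 at 3 DPA and 163, 159 and 147 at 5 DPA. In both genes the 1 DPA libraries lay below every other library. The log2 fold changes at 1 DPA were -0.49 ± 0.06 for Lars, -0.38 ± 0.07 for Gars and -0.38 ± 0.08 for the threonyl synthetase gene Tars (edgeR adjusted p = 4.46e-05, 0.000929 and 0.00278). The other 7 members of the group lay between -0.26 ± 0.12 for Cars and 0.05 ± 0.09 for Wars (adjusted p = 0.0986 and 0.623).

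For comparison, synthetase genes outside the module were counted at 1 DPA. Of the other 8 cytosolic synthetase genes, 5 rose and 3 fell, with a median log2 fold change of 0.36 and the smallest p for Rars (0.87 ± 0.06), Farsa (0.84 ± 0.07) and Vars (0.81 ± 0.08). Of 17 mitochondrial synthetase genes, which serve the separate translation system of that organelle, 9 rose and 1 fell (Cars2, -0.38 ± 0.14), with a median of 0.34. Examples were Nars2 (1.48 ± 0.09), Tars2 (1.47 ± 0.09) and Yars2 (1.33 ± 0.08). The difference between these gene groups was not tested, and 51.6% of all genes were called in the same comparison.

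**Figure D3:**
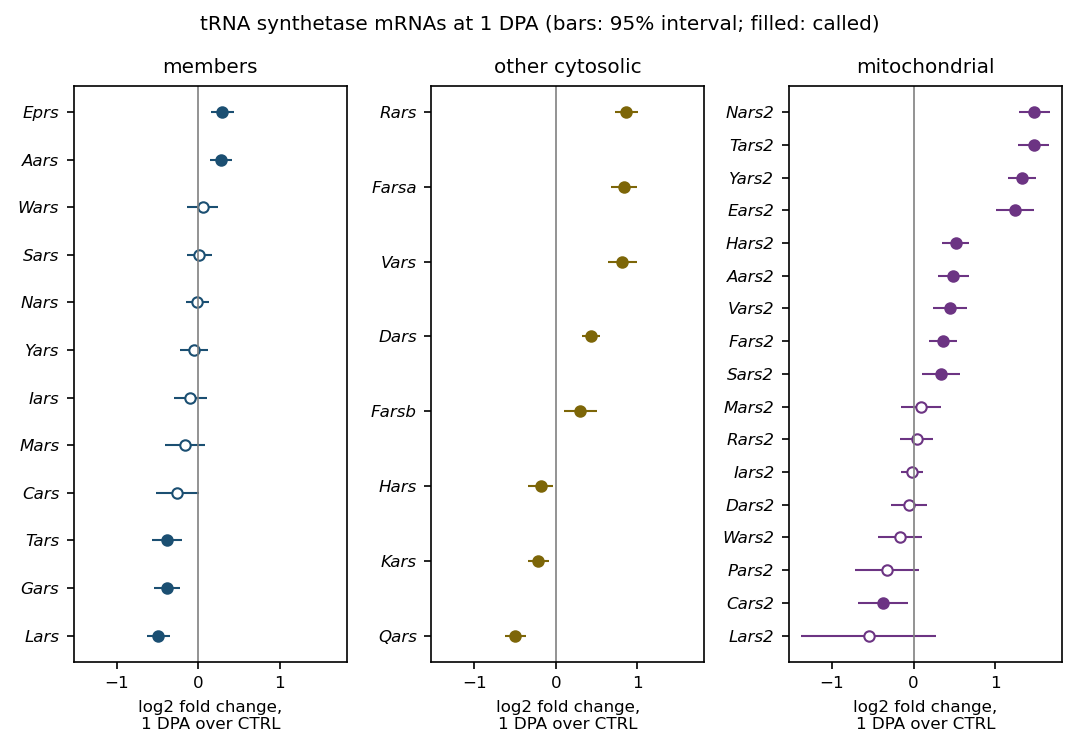
Log2 fold change at 1 DPA over CTRL (horizontal axes) of the 12 synthetase members, the other 8 cytosolic synthetase genes and 17 mitochondrial synthetase genes, with 95% intervals as bars and filled points for called genes. The members lie between -0.49 and 0.30, while Rars, Farsa and Vars, and Nars2, Tars2, Yars2 and Ears2, lie beyond 0.80.

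The promoter element was set beside the calls. Of the 12 members with TGATGNAA in the window, 2 rose at 1 DPA (Vldlr and Aars), 3 fell (Slc7a11, Gars and Tars) and 7 were not called. Of the 19 members whose window did not hold these letters, 6 rose (Atf4, Ddit3, Cebpb, Cebpg, Ppp1r15a and Eprs), 1 fell (Slc7a1) and 12 were not called. Sequence outside the window was not searched, so these 19 may still hold an element elsewhere. Of all genes tested, 29.2% were called higher and 22.4% lower at 1 DPA, 12.6% were called at 3 DPA and 8.54% at 5 DPA. At 3 DPA the called members with a matched window (Atf4, Ddit3, Cebpb, Cebpg and Ppp1r15a) were all among those 19. At 5 DPA Fgf21 was the 1 called member with the element, beside 4 without it. Chac1, Asns and Trib3 (whose match lay after its start) were among the members not called at any time. The members were named as described ATF4 targets, so their share with the element is not independent of how they were chosen. The difference between those with and without the element was not tested.

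**Figure D4:**
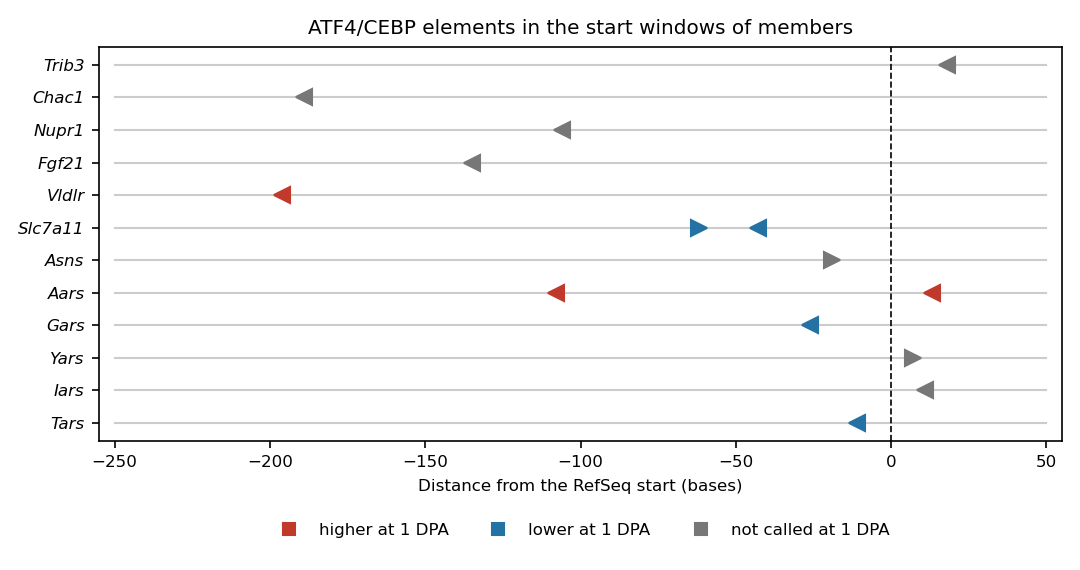
Positions of the element TGATGNAA (arrowheads, pointing right on the strand of the gene and left on the opposite strand) in the windows of the 12 members that hold it, by distance in bases from the RefSeq start, coloured by the call at 1 DPA against CTRL. Red marks Vldlr and Aars, blue marks Slc7a11, Gars and Tars, and grey marks the 7 members not called.

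Later times moved back toward CTRL for most of the members called at 1 DPA. These members were picked by their 1 DPA values, and the same libraries enter the later comparisons, which favours a move back. How many of all genes called at 1 DPA moved back was not counted. Between 3 and 1 DPA 13 members were called (6 higher and 7 lower), beside 45.1% of all genes (20.4% higher and 24.7% lower). Leaving out 3 DPA replicate 2 brought this to 8, and scaling without TMM that omits the 50 most abundant genes gave 8 higher and 5 lower. All 3 DPA libraries lay above every 1 DPA library for 7 members and below for 7, beside 30% and 29.3% of all genes. Of the 9 members raised at 1 DPA, 7 fell between 1 and 3 DPA, among them Cebpg (-0.95 ± 0.10, edgeR adjusted p = 1.83e-05), Atf4 (-0.59 ± 0.10, adjusted p = 0.000601) and Vldlr (-0.75 ± 0.12, adjusted p = 0.000295). Of the 6 lowered at 1 DPA, 5 rose, among them Lars (0.46 ± 0.06, adjusted p = 0.000125) and Gars (0.38 ± 0.07, adjusted p = 0.00122). Fgf21 also rose (1.92 ± 0.69, adjusted p = 0.0387), a call lost without CTRL replicate 2, 1 DPA replicate 2 or 3, any 3 DPA library or any 5 DPA library (adjusted p 0.0506 to 0.121). Fgf21 differed by 0.55 (adjusted p = 0.743) once the macrophage score was a covariate, and 10 of 10 macrophage markers were higher at 3 DPA than at 1 DPA. The fall of Ddit3 was smaller (-0.46 ± 0.13) and lost its call without 1 DPA replicate 3 (adjusted p = 0.0532) and with the macrophage score (0.0722). The falls of Ppp1r15a and Aars and the rises of Slc7a11 and Tars also lost their calls when 1 library was left out, in each case 1 DPA replicate 1 or 3 DPA replicate 2 among others (adjusted p 0.0511 to 0.102).

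Between 5 and 3 DPA 1 member was called, beside 3.16% of all genes (0.705% higher and 2.46% lower). This was Ddit3, which fell (-0.67 ± 0.13, edgeR adjusted p = 0.0228). It lost its call without 3 DPA replicate 1 or 3 or any 5 DPA library (adjusted p 0.0606 to 0.12), while 2 members were called on leaving out replicate 1 of CTRL, replicate 3 of 1 DPA or replicate 2 of 3 DPA. All 5 DPA libraries lay above every 3 DPA library for 4 members and below for 7, beside 12% and 16.5% of all genes. Between 5 and 1 DPA 15 members were called (6 higher and 9 lower), beside 56.1% of all genes (26.3% higher and 29.8% lower). The same scaling gave 9 higher and 7 lower here. For 5 members all 5 DPA libraries lay above every 1 DPA library and for 9 below, beside 32.2% and 33.8% of all genes. Of the 9 raised at 1 DPA, 8 were lower at 5 DPA than at 1 DPA, with Slc7a3 as the exception (-0.59 ± 0.25, adjusted p = 0.0610), and the fall of Cebpb lost its call without 1 DPA replicate 3 (adjusted p = 0.0517). Slc7a5 was lower at 5 DPA than at 1 DPA (-0.19 ± 0.06, adjusted p = 0.0227) although it was called against CTRL at no time. That call ended on leaving out any of 7 libraries, namely replicates 1 and 2 of CTRL, 1 and 3 of 1 DPA, 1 of 3 DPA, and 1 and 3 of 5 DPA (adjusted p 0.0502 to 0.129). The Slc7a5 value was -0.04 (0.601) with library sizes that omit the 50 most abundant genes and -0.12 (0.587) with the macrophage score, and the call also ended with no filter, with the stricter CPM filter and with only the 2 groups (0.0566 to 0.0856). The earlier and later comparisons share the 1 DPA libraries, so a high or low 1 DPA value enters both.

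In terms of abundance, Atf4 had the highest mean level per length of transcript. By the authors' deposited TPM (which corrects for transcript length), it averaged 547 at 1 DPA and 203 in CTRL. Atf5 (200 TPM) and Gars (116 TPM) came next in CTRL, and Slc7a11 was lowest (0.203 TPM). TPM were not TMM-scaled, so places rather than levels are set side by side, and in CTRL replicate 1 Atf5 (225 TPM) stood above Atf4 (182 TPM). Among the 38 members ordered by the mean TPM of a group, Cebpb stood at place 3 at 1 DPA and 10 in CTRL. Ppp1r15a stood at place 6 at 1 DPA and 18 in CTRL, Cebpg at 10 and 23, and Ddit3 at 11 and 27.

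For the members that were not called, the intervals show what the data allow. At 1 DPA 20 of the 23 uncalled members had 95% intervals wholly within 1 log2 unit of CTRL, and 13 had them within 0.5. At 3 DPA this held for 27 and 21 of the 31 uncalled members, and at 5 DPA for 29 and 21 of 33. The 3 whose intervals reached further at 1 DPA were Nupr1, Fgf21 and Phgdh.

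Upstream of ATF4, the genes of the response's own machinery moved in both directions at 1 DPA. Of 16 genes for the eIF2 kinases, eIF2, its exchange factor eIF2B and their regulators, 8 rose and 4 fell, beside 29.2% of all genes called higher and 22.4% called lower. Eif2b3 (1.28 ± 0.09) and Eif2b5 (0.84 ± 0.07), subunits of the exchange factor whose activity eIF2 phosphorylation blocks, and Eif2s1 (0.67 ± 0.06), the phosphorylated alpha subunit itself, had the smallest p among those raised. Those that fell were the kinase genes Eif2ak2 (-0.33 ± 0.09) and Eif2ak3 (-0.32 ± 0.09), which encode PKR and PERK, the eIF2 subunit gene Eif2s3x (-0.17 ± 0.05) and the kinase inhibitor gene Dnajc3 (-0.999 ± 0.11). At 3 DPA 3 of the 16 were called higher, namely Eif2s1 (0.24 ± 0.06), Eif2s2 (0.39 ± 0.08) and Gcn1l1 (0.32 ± 0.08), beside 10.2% of all genes.

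Of 25 further genes reported as ATF4-regulated but outside the module, 4 rose and 8 fell at 1 DPA, beside the same 29.2% and 22.4% of all genes. The mitochondrial folate enzyme gene Mthfd1l (1.41 ± 0.06) and Rars, which is also counted among the synthetases above, rose, and the acetyl-CoA transporter gene Slc33a1 fell (-0.68 ± 0.06). Atf3, a stress-induced factor that CHOP and ATF4 can raise, had CPM of 11.3, 2.14 and 0.998 in CTRL, 21.2, 22.5 and 12.6 at 1 DPA, 283, 123 and 169 at 3 DPA and 83.1, 84.1 and 48.4 at 5 DPA. Unlike Ddit3, it was highest at 3 DPA, with log2 fold changes over CTRL of 5.35 ± 0.81 there and 3.93 ± 0.77 at 5 DPA (edgeR adjusted p = 0.00234 and 0.0184). Of 8 other genes of folate and glycine metabolism, 3 rose and 2 fell at 1 DPA, where 51.6% of all genes were called. Gldc, which encodes the glycine decarboxylase of the cleavage system, had CPM of 1.12, 0.600 and 0.355 in CTRL, 11.4, 8.55 and 7.58 at 1 DPA, 4.57, 3.62 and 3.47 at 3 DPA and 2.36, 1.61 and 3.03 at 5 DPA, with every DT library above CTRL.

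Genes of the other arms of the unfolded protein response went the other way from Ddit3 at 1 DPA. Of 14 genes controlled by or belonging to the ATF6 and XBP1 arms, 12 fell at 1 DPA, beside 22.4% of all genes, with a median log2 fold change of -0.88. Sdf2l1 (-1.51 ± 0.14), Manf (-1.12 ± 0.09) and the chaperone gene Calr (-1.03 ± 0.10) had the smallest p. The main chaperone gene of the organelle, Hspa5, outside the naming rule and given after its value was seen, also fell (-0.92 ± 0.10). Between 3 and 1 DPA 10 of the 14 rose, beside 20.4% of all genes, and at 3 DPA 1 of them was called below CTRL (Sel1l, -0.43 ± 0.13). Beta cell markers also fell at 1 DPA, with 8 of 10 called lower. At 5 DPA 5 of the 10 markers were still called below CTRL (median -0.37), beside 2.67% of all genes. Of the 14 genes above, 0 were called at 5 DPA (median -0.04). The part of the number of beta cells in the fall was not tested.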

How the data were processed

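Islet RNA was measured in 12 libraries, 3 per group. RNeasy Mini purification and the QIAseq stranded mRNA kit were used, per the labels' protocols. Whole-number counts and TPM per gene were deposited by the authors, per the file headers. The submitters' processing notes name mm10. Aligner, counter and strand use: not given in the sources used here. A further 24 columns (RPKM and CPM) stayed out of the work. Groups follow the sample labels. Same-group libraries differed by far more than counting noise (chi-square over degrees of freedom at least 47.2).

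Genes passing edgeR's filterByExpr (minimum count 10) were scaled by TMM and fitted with the robust quasi-likelihood model over all 12 libraries with 1 mean per group. Benjamini-Hochberg adjustment ran over all 17294 genes. Standard errors came from the F statistic and 95% intervals from its degrees of freedom. The tools were edgeR 4.0.16, DESeq2 1.42.0 and limma 3.58.1 under R 4.3.3. TPM served for the order of members by their mean level in CTRL and at 1 DPA. Coordinates are from GENCODE M21. The fit was tested on simulated data, with 100 genes raised and 100 lowered by 1 log2 unit for each comparison with CTRL. It called 73% to 80% of the rises and 67% to 75% of the falls, with 7 or 8 false calls per comparison. Between 5 and 3 DPA libraries of the same replicate number, deviations from the group means correlated at 0.156, 0.187 and 0.326. In the other pairs of groups these values ran from -0.465 to 0.127. No label states a pairing, and whether the libraries are paired is not known.

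Members, lists and tests were chosen with earlier results of these data known. The rule for values in every library took Atf4, Ddit3, Atf5, Cebpb, Cebpg, Trib3, Chac1, Ppp1r15a and Asns, and the 3 members of smallest p in each role group, and from other lists up to 3 called genes per comparison. Like Hspa5, the genes Eif2ak2, Eif2ak3, Eif2s3x, Dnajc3, Cars2 and Ears2 were named at 1 DPA outside that rule. The other settings tried were RLE scaling, library sizes that omit the 50 most abundant genes, limma-voom, DESeq2, no filter, CPM of at least 1 in 3 libraries, only the 2 groups, a replicate block, acinar and macrophage score covariates, and leaving out each library. The setting that omits the 50 most abundant genes also used no TMM scaling.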

Additional observations from a re-analysis of the deposited data

Results flagged for a closer look

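The difference between times was itself tested, and 13 members differed between 3 and 1 DPA (beside 45.1% of all genes), 1 between 5 and 3 DPA (3.16%) and 15 between 5 and 1 DPA (56.1%), by edgeR at an adjusted p under 0.05. Of the 38 members these are 34.2%, 2.63% and 39.5%, each below the share of all genes. With 3 libraries per group, single libraries were not screened for gaps.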

How the results depend on the processing

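Of the members called, 12 of 15 at 1 DPA, 4 of 7 at 3 DPA and 0 of 5 at 5 DPA, each against CTRL, were called in every setting tried. Between times this held for 6 of 13 (3 and 1 DPA), 0 of 1 (5 and 3 DPA) and 6 of 15 (5 and 1 DPA). Leaving out each library in turn, the number of members called ran from 13 to 15 at 1 DPA, 4 to 11 at 3 DPA and 1 to 5 at 5 DPA. Between times it ran from 8 to 13 for 3 and 1 DPA, 0 to 2 for 5 and 3 DPA (4 to 10 at an unadjusted p under 0.05 where it was 0) and 12 to 16 for 5 and 1 DPA. With only the 2 groups compared, 1 member was called at 5 DPA and 2 between 5 and 3 DPA. DESeq2 called 3 between 5 and 3 DPA. With the macrophage score as a covariate, edgeR called 0 members at 5 DPA, where 4 had an unadjusted p under 0.05, and without it DESeq2 called 6 and limma-voom 5. The same covariate left 8 calls between 3 and 1 DPA and 7 between 5 and 1 DPA. Slc7a11 turned with it, to 0.0211 (adjusted p = 0.986) at 1 DPA against CTRL and to -0.11 (adjusted p = 0.95) between 5 and 1 DPA. The macrophage score largely followed the group, so these fits cannot cleanly separate the score from the group. Without the 50 most abundant genes in the library sizes, and without TMM scaling, 20 members were called at 1 DPA (9 higher and 11 lower). Atf5 (-0.40), Cars (-0.38), Mars (-0.29), Psph (-0.26) and Slc3a2 (-0.22) joined the lower ones. The causes of these differences were not tested. The replicate number of the labels as a block ended the call of Cebpb at 3 DPA (adjusted p = 0.0763) and added Fgf21 there (0.0335). It changed no call between 5 and 3 DPA. The labels show that libraries of different groups share a number, and state no pairing. Low counts limit Fgf21, Slc7a11 and Slc7a3.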
